A study of Mus musculus with 4 samples.

Results

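The immunoglobulin heavy variable (Ighv) genes are the V segments of the mouse heavy chain locus on chromosome 12, and the set described here is every gene symbol beginning with Ighv in the deposited count tables. These are 183 of 31017 symbols. RNA was sequenced from bone marrow monocytes isolated by FACS. The mice were of strain C57BL/6 and wild type, with 2 libraries at an age of 18 months (aged 1 and aged 2) and 2 at 3 months (young 1 and young 2). The labels give Atherosclerosis as the disease for all 4 libraries and name no treatment, so age is the only labelled difference. They do not say how many animals went into a library or whether the libraries of one age came from separate animals, so p-values rest only on how far these libraries spread, and that spread could be technical.

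A heavy chain gene is assembled in developing B cells, when the RAG recombinase joins a D to a J segment and then a V segment to the joined pair. The V segment supplies most of the antigen-binding domain, and its promoter then drives a transcript that is spliced to a constant region such as that of Ighm. Joining of V segments is normally completed only in cells of the B lineage, and a B cell and its progeny normally keep the same heavy chain V segment. Monocytes are myeloid cells, and B cells lie beside them in the marrow.

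The aged libraries held 2.07 times as much Ighv RNA as the young ones, and they held it in other V segments. In the aged libraries the leading member was Ighv7-1, a V segment known from antibodies to phosphorylcholine, and in the young libraries it was Ighv11-2, a V segment known from B-1 cells that bind phosphatidylcholine. Of the 183 members 19 had enough counts to be tested for age, and 7 of these rose and 3 fell, beside 2.87% and 2.89% of all tested genes. Members high at a single age could reach the test through that age, so these numbers are a description. The last 300 coding bases of the leading members of each age are shown, 5′ to 3′, because these are the V segments that carry the difference. Capitals mark the codon of the conserved cysteine before the third complementarity-determining region and the germline bases after it, up to the point where V joins D. The sequences are those of GENCODE M21 on GRCm38, and all members lie on the minus strand.
Ighv7-1 (aged): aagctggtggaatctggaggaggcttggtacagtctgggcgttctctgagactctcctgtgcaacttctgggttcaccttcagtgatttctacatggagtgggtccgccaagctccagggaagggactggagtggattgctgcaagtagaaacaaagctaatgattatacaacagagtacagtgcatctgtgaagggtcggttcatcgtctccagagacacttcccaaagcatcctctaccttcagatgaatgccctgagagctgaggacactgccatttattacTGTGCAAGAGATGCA
Ighv3-6 (aged): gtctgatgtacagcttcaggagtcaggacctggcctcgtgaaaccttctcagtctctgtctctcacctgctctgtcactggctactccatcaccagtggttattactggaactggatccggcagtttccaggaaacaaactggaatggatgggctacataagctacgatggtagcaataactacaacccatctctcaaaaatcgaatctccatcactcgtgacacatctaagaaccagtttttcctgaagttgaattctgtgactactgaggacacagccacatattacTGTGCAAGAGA
Ighv11-2 (young): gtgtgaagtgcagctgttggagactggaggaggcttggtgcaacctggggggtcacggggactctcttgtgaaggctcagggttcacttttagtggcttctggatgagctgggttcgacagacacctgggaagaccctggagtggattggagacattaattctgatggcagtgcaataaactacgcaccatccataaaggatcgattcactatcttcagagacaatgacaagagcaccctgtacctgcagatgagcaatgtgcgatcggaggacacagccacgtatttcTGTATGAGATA
Ighv4-1 (young): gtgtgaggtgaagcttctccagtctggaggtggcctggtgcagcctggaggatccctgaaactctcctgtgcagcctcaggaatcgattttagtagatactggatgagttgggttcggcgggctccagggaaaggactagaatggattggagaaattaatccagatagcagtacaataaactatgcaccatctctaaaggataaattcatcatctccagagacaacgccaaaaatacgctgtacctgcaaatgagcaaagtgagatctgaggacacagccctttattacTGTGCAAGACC
For the other members that passed, the last 45 coding bases are shown, with the same use of capitals, to set their junction ends side by side.
Ighv9-3 (aged): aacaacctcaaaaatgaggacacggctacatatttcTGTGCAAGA
Ighv1-80 (aged): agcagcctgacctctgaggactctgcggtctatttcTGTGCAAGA
Ighv1-53 (aged): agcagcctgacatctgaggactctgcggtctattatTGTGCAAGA
Ighv1-55 (aged): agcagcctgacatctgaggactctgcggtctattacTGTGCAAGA
Ighv1-42 (aged): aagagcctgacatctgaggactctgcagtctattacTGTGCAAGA
Ighv1-78 (young): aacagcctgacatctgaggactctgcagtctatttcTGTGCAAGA
In 9 of these 10 members the capitals begin with TGTGCAAGA, and in Ighv11-2 they read TGTATGAGATA. The 45 pairs among the 10 members had a median coding identity of 62.3%, with 95.4% as the highest value, between Ighv1-53 and Ighv1-55.

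Library totals ranged from 20159129 to 34278754 counts, and the members took between 0.00235% and 0.00532% of them. Lyz2, the lysozyme gene of myeloid cells, stood at 34817 and 34681 CPM (aged) against 32731 and 35182 CPM (young), where CPM are counts scaled to a library size of 1e6 after TMM normalization. Over all genes, 694 of 12035 tested genes passed an adjusted p of 0.05 in edgeR's quasi-likelihood test (5.77%), 346 of them higher with age (2.87%) and 348 lower (2.89%). The median log2 change of all tested genes was -0.0044. Without young 1, the deepest library, 197 genes passed. Where a gene had 0 counts, its level may have been as high as 3 counts give, which is 0.120, 0.138, 0.0868 and 0.150 CPM in aged 1, aged 2, young 1 and young 2, by counting error alone.

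The summed Ighv counts were 1326 in aged 1, 1130 in aged 2, 925 in young 1 and 474 in young 2. Scaled for depth, these were 52.9 and 52.0 CPM (aged) against 26.8 and 23.8 CPM (young). Both aged libraries lay above both young ones, with means of 52.4 ± 0.624 and 25.3 ± 2.12 CPM (SD, n = 2 per age), a ratio of 2.07 or 1.05 on the log2 scale. Without Ighv7-1, the leading member of the aged libraries, this log2 ratio was 0.57. Ighv11-2, the leading member of the young libraries, was kept in that sum. In bulk RNA, fewer cells of a type and less RNA per cell cannot be told apart.

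The 7 members that passed as higher in the aged libraries summed to 39.4 and 38.4 CPM there and to 1.04 and 0.903 CPM in the young ones. The 3 that passed as lower summed to 0.120 and 0.138 CPM (aged) against 10.6 and 9.48 CPM (young). The other 173 members summed to 13.4 and 13.5 CPM (aged) against 15.2 and 13.4 CPM (young), so the ages overlapped in this sum. Rises and falls of single members can cancel in it. These 3 sums describe members picked by the same comparison and were not tested.

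**Figure D1:**
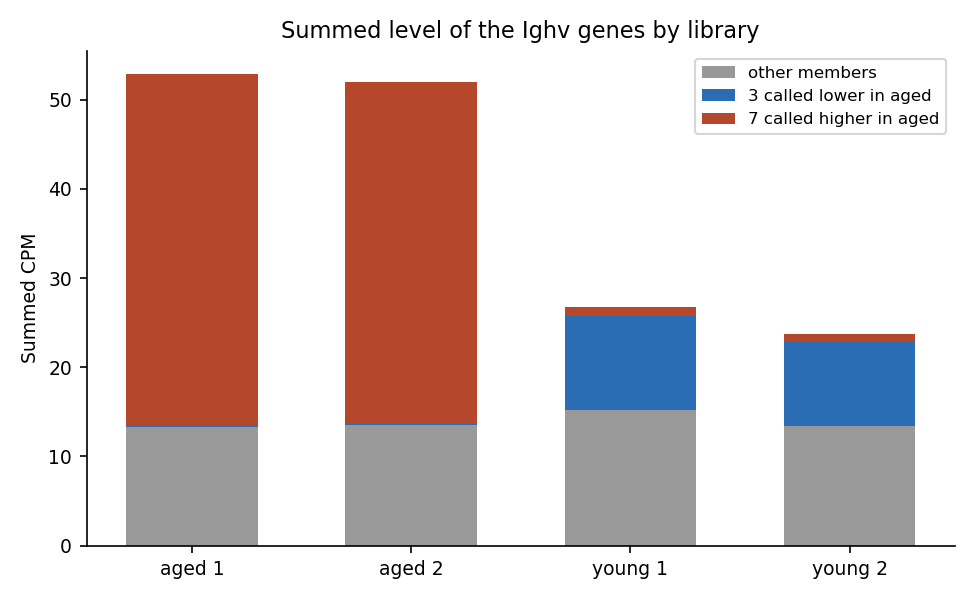
Summed CPM (TMM-scaled) of the Ighv genes in each library, as stacked bars. The other 173 members reach 13.4 to 15.2 CPM in every library, the 7 members called higher add 39.4 and 38.4 CPM in the aged libraries, and the 3 called lower add 10.6 and 9.48 CPM in the young ones.

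Per 100 counts of Ighm, the constant gene of the first heavy chain class a B cell makes, there were 6.28 and 6.21 Ighv counts (aged) against 4.40 and 3.82 (young). Ighm itself stood at 841 and 837 CPM (aged) against 608 and 622 CPM (young), a smaller difference (log2 change 0.45 ± 0.05 (SE), edgeR adjusted p = 0.000703). Without Ighv7-1 the difference in Ighv counts per 100 Ighm counts was 0.354, against 2.13 with it. Ighv11-2 was kept in both.

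Of the 183 members 108 had 0 counts in all 4 libraries, and 75 had at least 1 count. Only 19 passed the low-count filter and were tested. The filter keeps a gene that is high in 1 age alone, so a member that passed through that age had to differ, and the number that passed the test is a description. Of the 19 members 7 passed as higher and 3 as lower, beside 2.87% and 2.89% of all tested genes. Both aged libraries lay above both young ones in 9 of the 19 members and below them in 6, beside 25.9% and 25.7% of all tested genes, and the ages overlapped in 4. The 56 members seen but not tested had at most 27 counts in a library and summed to 94, 69, 98 and 51 counts in aged 1, aged 2, young 1 and young 2.

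The number of members seen was 52 and 47 (aged) against 47 and 37 (young). At the depth of the smallest Ighv total, 474 counts, the expected number was 37.1 and 34.6 (aged) against 36.8 and 37.0 (young), and the ages overlapped. The effective number of members (the exponential of Shannon's entropy of the shares) was 13.8 and 13.3 (aged) against 14.8 and 14.2 (young). The 5 most abundant members of each library held 64.6%, 64.4%, 61.2% and 64.3% of its Ighv counts in the same order of libraries. The number seen at equal depth overlapped between the ages. In both aged libraries the share of the 5 most abundant members was slightly higher, though young 2 came close (64.4% in aged 2 against 64.3%). The effective number was slightly lower in both aged libraries.

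Ighv7-1 (chr12:113896408-113896946) had 376 and 329 counts (aged) against 1 and 3 counts (young). It took 28.4% of the Ighv counts of aged 1 (95% Wilson interval 26.0 to 30.8%) and 29.1% of those of aged 2 (26.5 to 31.8%). At 15.1 ± 0.102 against 0.0897 ± 0.0859 CPM (SD, n = 2 per age), its log2 change was 7.58 ± 0.36 (SE, edgeR adjusted p = 6.79e-07). The ratio of summed counts, scaled for depth, was 205 (95% exact interval 79.8 to 755, counting error only). No 50-base stretch of its coding sequence occurred in another Ighv transcript, and its nearest member, Ighv7-3, was 88.9% identical.

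Ighv3-6 (chr12:114288152-114288582) had 138 and 121 counts (aged) against 2 and 1 (young), a ratio of 100.5 (34.0 to 490). Its log2 change was 6.53 ± 0.46 (edgeR adjusted p = 1.65e-05). Ighv9-3 (chr12:114140692-114141122) had 103 and 99 counts (aged) against 1 and 0 (young), a ratio of 235 (41.7 to 9332, log2 change 7.54 ± 0.62, edgeR adjusted p = 4.99e-05). Both were near 0 in the young libraries and alike in the aged ones, and each was the main member of its V family.

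The other 4 rises were in the Ighv1 family, the largest V family of the locus. Ighv1-80 (chr12:115912344-115912776) had 132 and 75 counts (aged) against 1 and 0 (young) (log2 change 7.56 ± 0.67, edgeR adjusted p = 9.92e-05). Its aged libraries were the least alike of the 7, at 5.26 and 3.45 CPM, and still far above the young ones. Ighv1-53 (chr12:115158403-115158835) had 107 and 104 counts against 17 and 7, which is 4.26 and 4.78 CPM against 0.492 and 0.351 CPM (3.36 ± 0.36, edgeR adjusted p = 0.000415). Ighv1-55 (chr12:115208095-115208591) had 80 and 66 counts against 7 and 7 (3.55 ± 0.45, edgeR adjusted p = 0.00136). Ighv1-42 (chr12:114937113-114937544) had 52 and 40 counts against 7 and 0 (3.93 ± 0.69, edgeR adjusted p = 0.00945). The ratios of summed counts were 241 (42.8 to 9562) for Ighv1-80, 10.2 (6.69 to 16.3) for Ighv1-53, 12.1 (7.01 to 22.8) for Ighv1-55 and 15.3 (7.13 to 39.1) for Ighv1-42. Ighv1-53 and Ighv1-55 were 96.6% and 97.1% identical to Ighv1-62. Of their 50-base windows 42.4% and 57.9% occurred in no other Ighv transcript, so their counts are uncertain. Ighv1-42 was 96.8% identical to Ighv1-30, and 67.2% of its windows occurred in no other Ighv transcript, so its counts are uncertain as well. Without young 1 the log2 change of Ighv1-42 was 8.45, and without young 2 it was 3.24. Unlike the first 4 rises, Ighv1-53 and Ighv1-55 were detected in both young libraries above 3 counts.

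Ighv11-2 (chr12:114048241-114048812) was the leading member of both young libraries, with 219 and 126 counts, and had 2 and 3 counts in the aged ones. It took 23.7% of the Ighv counts of young 1 (21.05 to 26.5%) and 26.6% of those of young 2 (22.8 to 30.7%). The young libraries stood at 6.34 and 6.32 CPM and the aged ones at 0.0797 and 0.138 CPM, a log2 change of -5.82 ± 0.41 (edgeR adjusted p = 1.51e-05) and a ratio of young over aged of 59.3 (25.2 to 184). Its nearest member, Ighv11-1, was 98.9% identical in the coding sequence and had 0 counts in all libraries. Of the 50-base windows of Ighv11-2, 47.7% occurred in no other Ighv transcript. Reads that both genes could take may have been split or dropped in counting.

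Ighv4-1 (chr12:113948282-113948796) had 112 and 52 counts in the young libraries and 1 and 0 in the aged ones. Its log2 change was -6.81 ± 0.72 (edgeR adjusted p = 0.000392), and the ratio of young over aged was 141 (24.9 to 5599). Ighv1-78 (chr12:115868773-115869227) had 34 and 11 counts in the young and 0 and 0 in the aged libraries (edgeR adjusted p = 0.0152), and the 95% exact interval of the ratio of young over aged began at 10.1. Ighv1-78 is the least sure of the 10, since it was not tested without young 1 and its highest adjusted p over the other alternatives was 0.0494. Ighv2-9, which the filter left out, had 15 and 7 counts in the young and 0 and 0 in the aged libraries. Its interval began at 4.71. It is named after its values were seen, and it passed with a filter blind to age (edgeR adjusted p = 0.0485).

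**Figure D2:**
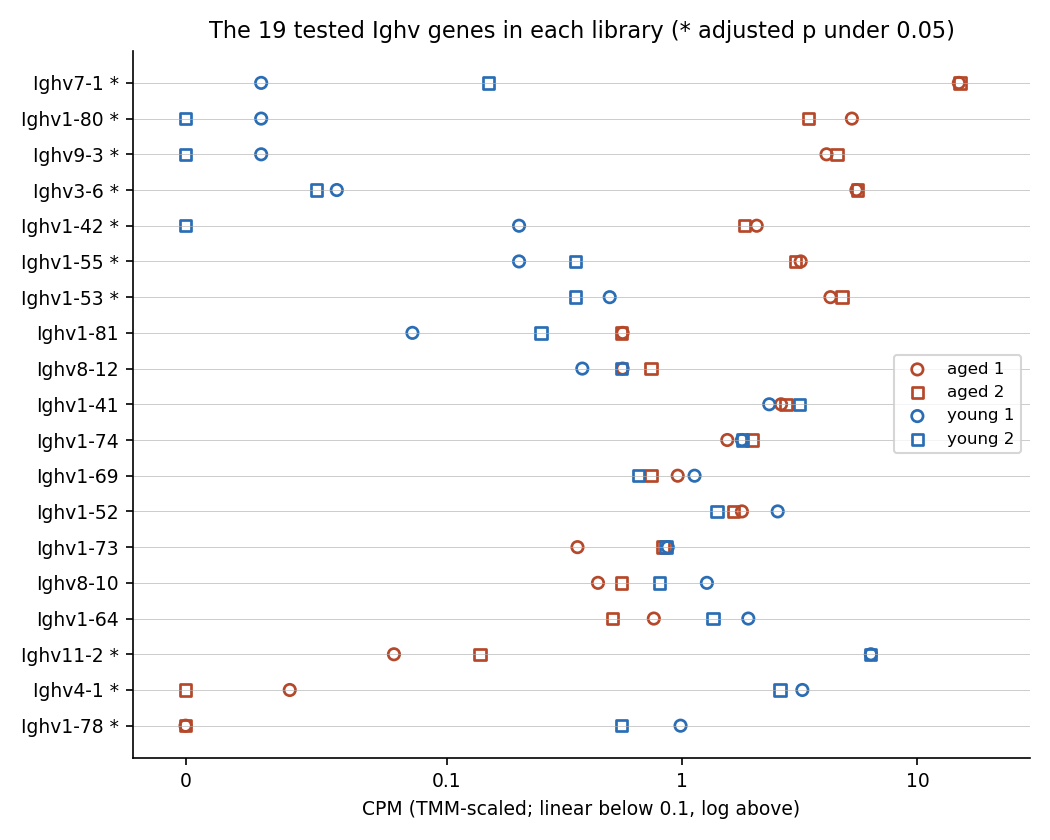
CPM (TMM-scaled) of the 19 tested Ighv genes in each library, on an axis that is linear below 0.1 and logarithmic above. Circles are replicate 1 and squares replicate 2, red for aged and blue for young, and asterisks mark the 10 genes with an edgeR adjusted p under 0.05. In these 10 the ages are well apart, and in the genes between them they are less far apart or overlap.

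The other 9 tested members did not pass, and some were among the most abundant in every library. Ighv1-41 (chr12:114932371-114932782), annotated as a pseudogene, had 66, 60, 81 and 63 counts in aged 1, aged 2, young 1 and young 2. At 2.63, 2.76, 2.34 and 3.16 CPM the ages overlapped, with a log2 change of -0.01 ± 0.29 (edgeR adjusted p = 0.987). Ighv1-52 (chr12:115145487-115145919) stood at 1.79, 1.66, 2.55 and 1.40 CPM in the same order (-0.23 ± 0.37, edgeR adjusted p = 0.77), and it was 98.6% identical to Ighv1-61. The pseudogene Ighv8-10 (chr12:115519340-115519782) had 11 and 12 counts (aged) against 44 and 16 (young) (-1.10 ± 0.51, edgeR adjusted p = 0.25). Ighv1-64 reached an adjusted p of 0.113 in edgeR's test, with 19 and 11 counts (aged) against 66 and 27 (young), and passed with no low-count filter (adjusted p = 0.0429), where 8.08% of 17314 genes passed.

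Pseudogenes lack a functional coding sequence, yet 6 of the 70 annotated ones had counts, against 69 of the 113 other members. Pseudogenes summed to 3.71 and 4.19 CPM (aged) against 4.74 and 5.01 CPM (young). Of the 3 pseudogenes tested (Ighv1-41, Ighv1-73 and Ighv8-10) 0 passed in edgeR, DESeq2 or limma-voom, and 0 had an unadjusted p under 0.05.

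Members with a known use outside these leaders were scarce. Ighv12-3, which also serves B-1 cells that bind phosphatidylcholine, had 0 counts in all 4 libraries. Ighv5-2, a V segment near the D segments that is favoured in early B-cell precursors, had 1 count in young 1 and 0 in the other libraries. Ighv1-72, the V segment of the classical response to the hapten nitrophenyl, had 2, 1, 6 and 0 counts in aged 1, aged 2, young 1 and young 2. It was 99.1% identical to Ighv1-62-3, with 8.61% of its 50-base windows found in no other Ighv transcript, so its reads could be split.

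The symbols name 16 V families, the number after Ighv, and 12 of them had counts. Ighv1 held 48.7% and 46.7% of the Ighv counts (aged) against 51.4% and 51.1% (young). These shares lay close together although 4 Ighv1 members rose and 1 fell, and the young interval in young 2 ran from 46.6 to 55.5%. With pseudogenes left out, the difference of the age means was 0.0308 percentage points, against -3.48 with them. Without Ighv7-1 in the total it was 15.6 percentage points, but Ighv11-2, the leading member of the young libraries, stayed in that total. The part of single members in the Ighv1 share was not tested.

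In Ighv7, Ighv3 and Ighv9 a single member held nearly all counts of the family. Ighv7 held 28.4% and 29.1% (aged) against 0.216% and 0.633% (young), and Ighv7-1 held all its counts but 1. Ighv3 held 10.4% and 10.7% (aged) against 0.216% and 0.422% (young). Ighv9 held 7.84% and 8.76% (aged) against 0.108% and 0% (young).

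Ighv11 and Ighv4 had the opposite pattern. Ighv11 held 0.151% and 0.265% (aged) against 23.7% and 26.6% (young), all of it Ighv11-2. Ighv4 held 0.0754% and 0% (aged) against 12.1% and 10.97% (young), all of it Ighv4-1. A share of 0 allows up to 0.265% in aged 2 and up to 0.633% in young 2.

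Families Ighv8 and Ighv2 took larger shares in the young libraries, on few counts. Ighv8 held 2.34% and 2.57% (aged) against 7.03% and 6.54% (young), where the pseudogene Ighv8-10 had the most counts of the family in the young libraries. In the aged ones Ighv8-12 (chr12:115647945-115648387) had the most, with 14 and 16 counts against 13 and 11 (young) (log2 change 0.51 ± 0.56, edgeR adjusted p = 0.654). Ighv2 held 0.754% and 0.442% (aged) against 4.65% and 2.74% (young), with 7, 3, 27 and 6 counts for Ighv2-3 (chr12:113611187-113611617) in aged 1, aged 2, young 1 and young 2. Ighv2-9 held 15 of the 43 counts of Ighv2 in young 1 and 7 of the 13 in young 2. Ighv5, with 21 members the second largest family, stayed between 0.541% and 1.05% in all 4 libraries. No count fell on families Ighv12, Ighv13, Ighv15 and Ighv16.

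**Figure D3:**
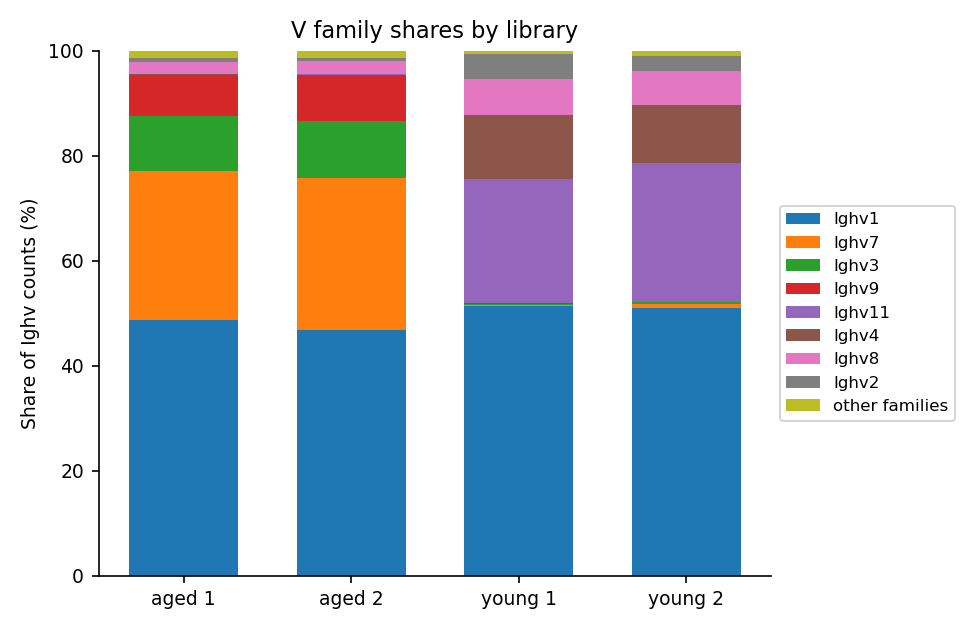
Share of Ighv counts (%) held by each V family, as stacked bars per library. Ighv1 takes 46.7% to 51.4% in every library, Ighv7, Ighv3 and Ighv9 fill most of the rest in the aged libraries, and Ighv11 and Ighv4 do so in the young ones.

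The libraries of one age had nearly the same V profile. The share of Ighv counts that 2 libraries had in common, summed over members as the smaller of both shares, was 91.5% between the aged and 83.1% between the young libraries. Across ages it was 25.0% to 25.9% for the 4 pairs. In a chi-square test over the 19 members with at least 10 counts in the pair, the aged libraries did not differ beyond counting noise (1.20 per degree of freedom, p = 0.25). The young libraries differed slightly more than counting noise in a chi-square test over 16 members (1.75 per degree of freedom, p = 0.0361). Over all genes with at least 10 counts the same statistic was 9.79 between the aged and 12.7 between the young libraries, far above counting noise. The libraries were therefore not treated as 1 library deposited more than once, though the spread between them may still be technical. This statistic grows with the counts per gene, so its values for the members and for all genes cannot be compared as spread. Which animals gave the cells of each library is not stated, and the part of individual animals in the V profiles cannot be told apart from that of age.

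**Figure D4:**
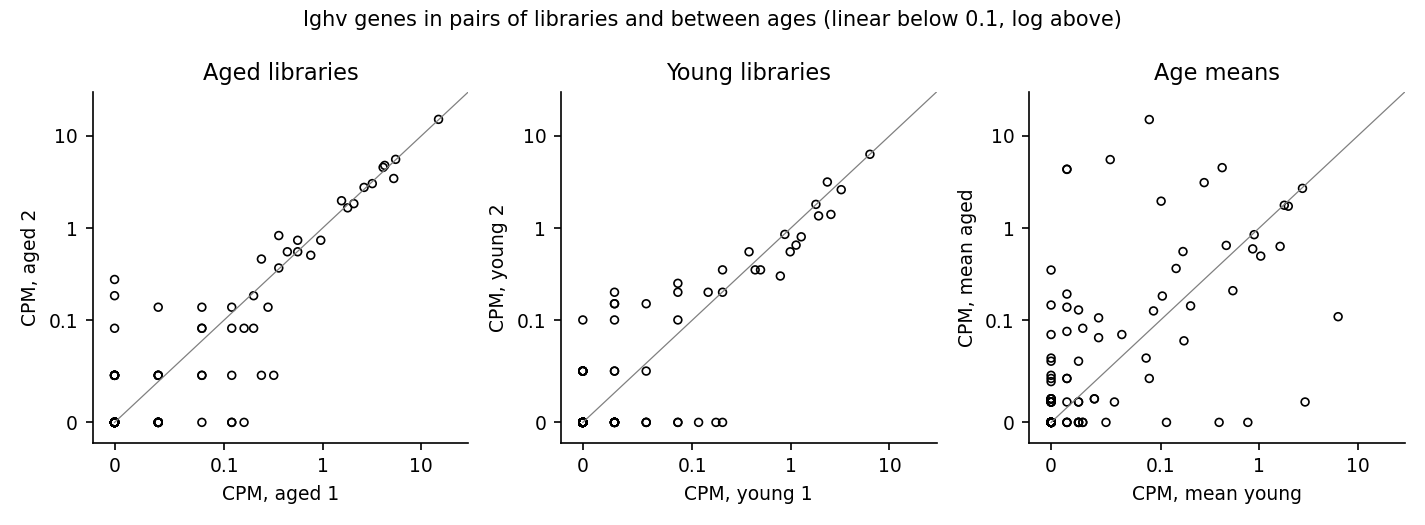
CPM (TMM-scaled) of all 183 Ighv genes in aged 1 against aged 2, in young 1 against young 2 and as age means against each other, on axes that are linear below 0.1 and logarithmic above. Each circle is a gene and the line marks equality; abundant genes lie along the line within an age and leave it along both axes between ages.

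Along the locus, the members start between 143 and 2580 kb from the J segments, with Ighv5-1 nearest. The members that differed were spread over most of this range. Ighv7-1 lies 467 kb, Ighv9-3 711 kb and Ighv3-6 858 kb from the J segments, and the 4 Ighv1 members that rose lie between 1507 and 2483 kb. Of the members that fell, Ighv4-1 at 518 kb and Ighv11-2 at 618 kb lie between Ighv7-1 and Ighv9-3, and Ighv1-78 lies at 2439 kb. Per kb of exon, Ighv7-1 reached 41.5 CPM per kb in the aged libraries against 15.8 for Ighv3-6, and in the young libraries Ighv11-2 reached 13.7 against 8.36 for Ighv1-41.

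**Figure D5:**
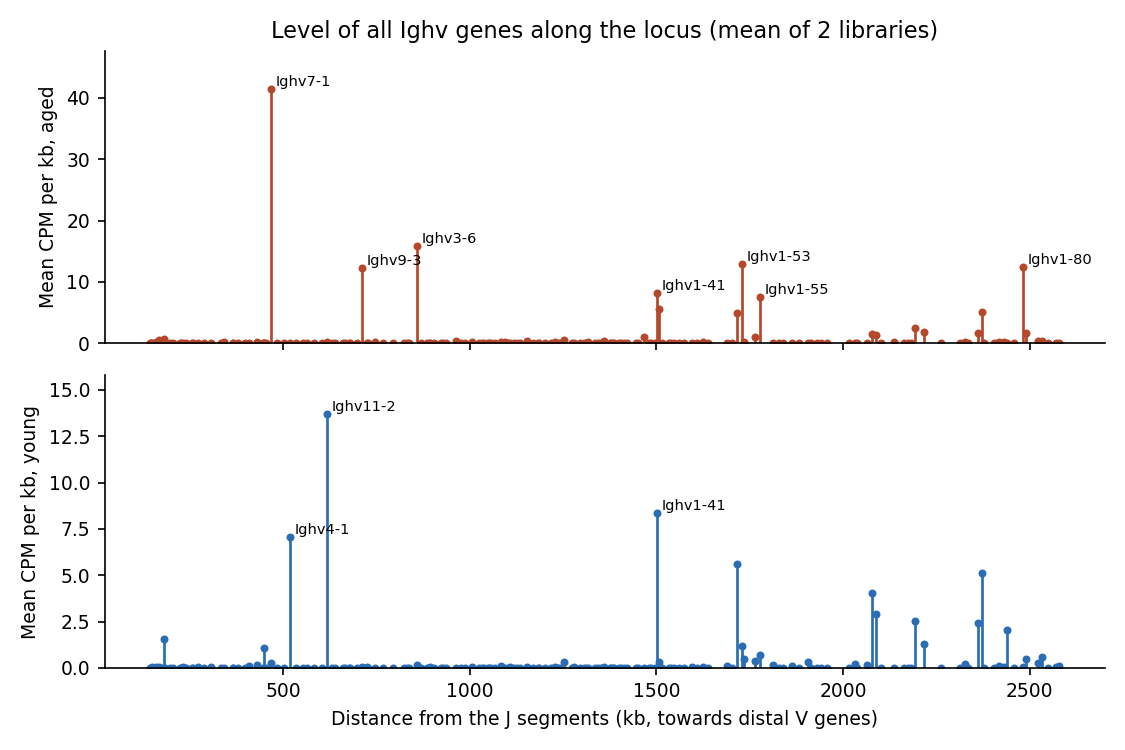
Mean CPM per kb of exon of all 183 Ighv genes (vertical lines with points, mean of 2 libraries per age) against distance in kb from the J segments, aged above and young below with separate vertical scales. The tallest line is Ighv7-1 in the aged libraries, at 41.5 CPM per kb, and Ighv11-2 in the young ones, at 13.7, while Ighv1-41 stands at 8.19 and 8.36, Ighv1-52 at 4.91 and 5.63 and Ighv1-74 at 5.03 and 5.13 in aged and young.

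Other genes of the B lineage were read beside the V segments, from lists of genes. Of 8 heavy chain constant genes 3 were tested and all 3 rose, beside 2.87% of all tested genes that rose. Igha, the constant gene of IgA, had 556 and 536 counts (aged) against 0 and 1 (young) (edgeR adjusted p = 2.33e-07). Ighd, expressed by mature B cells together with Ighm, stood at 5.02 and 7.54 against 2.31 and 2.56 CPM (log2 change 1.37 ± 0.27, edgeR adjusted p = 0.0148), and did not pass without aged 2 (0.062) or young 1 (0.108). The IgG genes had at most 8 counts in a library, and Ighe had 0.

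Of 17 B-cell receptor and surface genes 3 rose, Cd79b and Ms4a1 among them, and 0 fell, with a median log2 change of 0.68. Beside the lists in this paragraph, 2.87% of all tested genes rose and 2.89% fell. Cd79b, a signalling chain of the receptor, stood at 25.0 and 27.6 against 18.5 and 18.4 CPM, and Ms4a1, which encodes CD20, at 3.99 and 4.55 against 1.79 and 1.76 CPM. Cd79b and Ms4a1 each failed to pass when aged 2, young 1 or young 2 was left out (edgeR adjusted p = 0.0717 to 0.154). The list summed to 605 and 626 CPM (aged) against 637 and 609 CPM (young), most of it from Cd24a and Cd37, which myeloid cells express as well. Of 8 tested B-lineage transcription factor genes 2 rose, Pou2f2 and Spib (0.71 ± 0.13 and 0.81 ± 0.15), neither of which passed without young 1 (edgeR adjusted p = 0.0647 and 0.05). Of 13 tested plasma cell genes Sdc1 rose (1.25 ± 0.28) and was lost without aged 2 or young 1 (edgeR adjusted p = 0.0924 and 0.224), while Xbp1, the most abundant, had an edgeR adjusted p of 0.058. Among the tested plasma cell genes 0 fell, and their median log2 change was 0.18, below the 0.68 of the receptor and surface genes. Of 4 tested genes of precursor B cells and V(D)J recombination 0 passed in edgeR, DESeq2 or limma-voom and 0 had an unadjusted p under 0.05. That list summed to 4.62 and 3.68 against 4.98 and 5.52 CPM. The part of B-lineage cells in the V profile was not tested.

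Ighv11-2 is known to pair with the light chain gene Igkv14-126 in B-1 cells. Igkv14-126, looked up after the values of Ighv11-2 were seen, had 18 and 6 counts (aged) against 941 and 576 (young) (log2 change -5.76 ± 0.25, edgeR adjusted p = 4.2e-07). Both genes were thus high in the same 2 libraries. Igkv7-33, a known partner of Ighv7-1, had 0 counts in all 4 libraries. The pairing of heavy and light chains in a cell cannot be read from bulk RNA.

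Among lists of other cells, T and NK cell genes had 0 of 13 past the threshold in edgeR, DESeq2 or limma-voom, with 2 at an unadjusted p under 0.05, and summed to 56.1 and 54.2 against 58.1 and 63.0 CPM. Monocyte identity genes had 3 higher (Csf1r, Spi1 and Cd68) and 2 lower (Ly6c2 and Mpeg1) of 12 and summed to 43064 to 45459 CPM over the libraries. By edgeR adjusted p, Spi1 was lost without young 1 (0.0751), Cd68 without aged 2, young 1 or young 2 (0.063, 0.185 and 0.0736) and Mpeg1 without aged 2 or young 1 (0.115 and 0.234). Neutrophil genes had 2 higher (Ngp and Ltf) and 4 lower (S100a8, Elane, Mpo and Cxcr2) of 11, at 34277 to 35412 CPM, and Mpo was lost without aged 2, young 1 or young 2 (edgeR adjusted p = 0.0516, 0.0611 and 0.143). Dendritic cell genes had Flt3 and Itgax higher of 11, neither of which passed without young 1 (edgeR adjusted p = 0.178 and 0.196), at 270 to 306 CPM. Erythroid genes had Car2 higher of 8, at 348 to 396 CPM. Beside these lists, 2.87% of all tested genes passed as higher and 2.89% as lower.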

How the data were processed

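RNA of sorted bone marrow monocytes from 2 libraries per age was analysed. Per the labels' protocols, poly(A) RNA was captured on oligo-dT and libraries kept the strand by dUTP. The authors deposited raw counts, 1 whole number for each symbol, not normalized. HTSeq, STAR 2.5.3, cutadapt, DESeq2 and the build mm10 appear in the submitters' processing notes without roles. The annotation, the strand setting and the treatment of reads shared by near-identical V genes were not given in the sources used here. The files held no rows for unassigned reads.

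All 183 Ighv symbols were matched by name to GENCODE M21 (GRCm38, the assembly also called mm10). Genes were kept by filterByExpr (minimum count 10, minimum total 15), scaled with TMM and tested for age with edgeR's quasi-likelihood test, two-sided, with Benjamini-Hochberg adjustment over 12035 genes at 0.05. SE is the log2 change divided by the square root of F. A fitted log2 change of a gene near 0 in an age depends on the prior count, so ratios of summed counts with exact 95% intervals are given. Sums and shares over members have no test.

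The members named are those past the threshold, the 6 with the highest mean share, the leading member of each family with at least 1% of Ighv counts, the 2 most abundant pseudogenes and 5 V segments of known use (Ighv5-2, Ighv7-1, Ighv11-2, Ighv12-3 and Ighv1-72). Genes of other lists were taken from the 2 most abundant and up to 2 per direction past the threshold. Genes outside this rule are Ighv2-9, Ighv1-64, Ighv1-73, Ighv1-74, Ighv8-12, Cd68, Elane, Mpo and the Igkv genes. The members and lists were chosen with earlier results of these data known. Identity between members was computed by global alignment of coding sequences, or of transcripts where no coding sequence is annotated. The values of 1 listed gene are not reported here. The procedure was tested on simulated data. The tools were edgeR 4.0.16, DESeq2 1.42.0 and limma 3.58.1 in R 4.3.3, and Biopython 1.88.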

Additional observations from a re-analysis of the deposited data

How the results depend on the processing

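Over 8 other settings and each library left out, 7 Ighv members were higher in the aged libraries throughout, and 3 lower, except 4 with the filter blind to age, 5 with no low-count filter and 2 without young replicate 1. All 10 members that passed also passed in every setting in which they were tested. With a library left out, fitted log2 changes of members near 0 in an age moved most, namely Ighv7-1 from 7.58 to 6.59 without young 1 and 8.81 without young 2, Ighv9-3 from 7.54 to 9.59 and 7.01, Ighv1-80 from 7.56 to 9.61 and 7.03, Ighv1-42 from 3.93 to 8.45 and 3.24, and Ighv4-1 from -6.81 to -9.23 without aged 1 and -6.05 without aged 2. Over all genes 1399 passed with no low-count filter, 1817 with the replicate number as a block (replicate block, 801 higher and 1016 lower) and 197 to 1040 with a library left out. The block left the member counts at 7 and 3; deviations of same-numbered libraries correlated at 0.0937, and with 2 numbers per age whether they pair the libraries cannot be settled. With a library left out, the remaining one of that age is assumed to vary like the others.

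The log2 ratio of summed Ighv levels (1.05) was 0.57 without the most abundant member, 1.25 without pseudogenes and 0.97 to 1.14 with a library left out. The difference in Ighv counts per 100 Ighm counts (2.13) was 0.354 without that member and 1.85 to 2.42 with a library left out. Per 100 counts of all heavy constant genes it was 1.94. Per 100 counts of Cd79a plus Cd79b it was 40.8, which is on another scale. There the ratio of the age means, aged over young, was 1.38, against 1.52 per Ighm. The difference in the Ighv1 share (-3.48 percentage points) turned to 15.6 without that member and 0.0308 without pseudogenes, was -7.51 by counts per kb of exon, an alternative chosen after seeing the data, and -4.48 to -2.49 with a library left out. The difference in members seen at equal depth (-1.05) was 7.5 unthinned, 9.34 thinned by library total and 3.5 for at least 3 counts, and -2.29 to 0.183 with a library left out. The cause of these moves was not tested. In the settings without Ighv7-1, the most abundant member, Ighv11-2 of the young libraries was kept. Those settings thus took counts almost only from the aged libraries, and values without both leading members were not computed. Depth limits the 56 members seen but not tested.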

Other observations

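J segments of the heavy chain locus had 59 and 46 counts (aged) against 68 and 42 (young) over 4 genes, and 17 D segments had 1 and 0 against 0 and 2. Kappa light chain V genes summed to 2519 and 2216 counts (aged) against 1526 and 848 (young), not scaled for depth. Their 2 most abundant members in the aged libraries, named after their values were seen, were Igkv15-103 with 643 and 522 counts against 0 and 0, and Igkv4-55 with 422 and 442 counts against 1 and 3. In the young libraries Igkv14-126 alone had 941 and 576 of the summed kappa counts. Igkv3-2 followed it there, with 199 and 60 counts against 13 and 8 in the aged libraries.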
